A study of Mus musculus with 18 samples.

Results

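*Cxcr3*, *Cxcr4*, *Cxcr5*, *Cxcr6*, *Ccr2*, *Ccr4*, *Ccr8*, *Ccr9* and *Cx3cr1* encode receptors that direct T cells toward inflamed tissue and toward the sites where their chemokines are made. These 9 genes were chosen by name, not by their values, out of the 45706 genes listed for each library. Earlier results of these data were known when they were chosen. Each symbol matched exactly 1 gene identifier. The RNA-seq data comprise 18 libraries, made from OT-I CD8+ T cells that carry a transgenic T cell receptor for the OVA(257-264) peptide and had been purified from mouse splenocytes by negative selection. All cells were cultured with IL-15 and IL-7. Single peptide stimulated cells met the peptide only at the start and were then rested, whereas repeat peptide stimulated cells received it daily and were still kept with it during the treatment. Treatment with 1 µM ibrutinib, an irreversible inhibitor of the kinase BTK, or with its solvent DMSO ran from day 5 to day 8, when live cells were lysed.

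The groups were repeat peptide with DMSO (n = 4), repeat peptide with ibrutinib (n = 5), single peptide with DMSO (n = 5) and single peptide with ibrutinib (n = 4). The genotype entry of the labels takes 6 values, here lettered A to F. Libraries that share a value are called an experiment here, a word the labels do not use for it. Experiments A to D hold a library of each group, E only repeat peptide with ibrutinib, and F only single peptide with DMSO. The labels give the strain of every library as wild type OT-1 mice, while the genotype entry of experiments B to E reads as a BTK knockout (for example "btk KO-6"). For A the entry is "INHB-1 left over" and for F it is "PKC igoni-2". Since btk deficient cells are not part of the RNA-seq that the study describes, the entry served here only to name the experiments. Neither the age of the mice nor whether cells of several mice were pooled is stated in the sources used here. Total expected counts ran from 23445922 to 51995372 per library. The summed TPM (a level normalized for transcript length and for the size of the library) of *Cd3d*, *Cd3e*, *Cd3g*, *Cd8a* and *Cd8b1* was 2258 to 3152 in every library, whereas *Cd4* reached at most 2 counts and was at 0 in 12 of 18 libraries.

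Chemokine receptors are G protein coupled receptors that couple mainly to inhibitory G proteins, turn a gradient of chemokine into directed movement, and are switched off by receptor kinases, arrestins and regulators of G protein signalling. Naive CD8+ T cells rely on homing receptors of the lymph node, and on activation they acquire receptors for inflammatory chemokines. CXCR3 binds the interferon induced chemokines CXCL9, CXCL10 and CXCL11, CXCR6 binds CXCL16, and CX3CR1, which binds fractalkine, is known as a marker of effector cells.

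On the genome, 7 of the 9 genes lie on chromosome 9 and the other 2 elsewhere (GRCm38, GENCODE M21). All 9 are protein-coding. *Cxcr6* (chr9:123806475-123811760, plus strand) and *Ccr2* (chr9:124101950-124113557, plus strand) are 290 kb apart, *Ccr9* (chr9:123678439-123784330, plus strand) ends 22.1 kb before *Cxcr6*, and *Cx3cr1* (chr9:119901616-120069879, minus strand) ends 22.2 kb before *Ccr8* (chr9:120092114-120094906, plus strand). *Ccr4* (chr9:114490316-114504916) and *Cxcr5* (chr9:44511787-44561877) lie on the minus strand of the same chromosome, *Cxcr3* on the minus strand of chrX:101731535-101734269 and *Cxcr4* on the minus strand of chr1:128588199-128592293. Exons of *Cxcr5* share 110 bases with *Bcl9l* on the opposite strand, exons of *Cx3cr1* share 78 bases with the antisense gene *Gm33858*, and exons of *Ccr9* overlap 3 other genes, 1 of them on the same strand. The libraries were made with a kit that keeps the strand, but the strand setting of the counting is not given in the sources used here. Counts of these 3 genes therefore carry that uncertainty. The expected count was whole (within 0.005) in all 18 libraries for 8 of the genes and in 15 of 18 for *Ccr2*, so few reads were divided between these genes and similar sequences.

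Promoter sequences (RefSeq, GRCm38.p6) were at hand for 8 of the 9 genes; *Cxcr5* was not among them. The 250 bases before each start were searched on both strands for 4 short motifs of factors active in stimulated T cells: AP-1 (TGANTCA), NFAT (GGAAAA), Runx (TGTGGT) and T-box (GGTGTG). The sequences of 3 genes are shown because their counts separate the groups in different ways: *Cxcr6*, the most abundant of the receptors with repeat peptide, *Cxcr3*, the receptor that was higher with ibrutinib in repeat peptide stimulated cells, and *Ccr4*, which was higher with repeat peptide in DMSO. Only the stretch that overlaps no annotated exon is printed, and capitals mark a motif match.
*Cxcr6* promoter, chr9:123806227-123806474, plus strand: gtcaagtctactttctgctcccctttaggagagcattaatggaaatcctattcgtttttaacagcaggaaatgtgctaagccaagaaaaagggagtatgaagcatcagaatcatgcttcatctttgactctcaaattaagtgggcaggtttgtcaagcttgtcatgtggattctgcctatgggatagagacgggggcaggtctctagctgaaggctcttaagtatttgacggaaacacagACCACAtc
*Cxcr3* promoter, chrX:101734270-101734397, minus strand: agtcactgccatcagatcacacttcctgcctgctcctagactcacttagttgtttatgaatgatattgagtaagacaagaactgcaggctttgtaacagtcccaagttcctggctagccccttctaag
*Ccr4* promoter, chr9:114496563-114496794, minus strand: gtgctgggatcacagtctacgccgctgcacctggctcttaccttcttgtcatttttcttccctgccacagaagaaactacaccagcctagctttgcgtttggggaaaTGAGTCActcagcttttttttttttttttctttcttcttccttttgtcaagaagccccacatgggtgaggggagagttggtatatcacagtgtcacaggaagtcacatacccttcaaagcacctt

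The AP-1 match of *Ccr4* begins 143 bases before the start, and among the 8 genes no other window held this motif, which is present in 6.75% of 32851 promoter windows of the same length. *Cxcr6* has a Runx match that begins 10 bases before the start, *Cxcr3* has one 110 bases before it, in a stretch that another annotation counts as exon and that is not printed, and *Cx3cr1* has one 54 bases before it. The Runx motif occurs in 14% of all windows, the NFAT motif, found in *Ccr2*, in 20.4%, and the T-box motif, found in *Ccr9*, in 16.3%. These matches describe the letters only.

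The receptors covered a wide range of levels, from abundant to nearly absent. On the TPM scale *Cxcr6* was the highest in repeat peptide stimulated cells, at 150.5 ± 46 with DMSO (mean ± SD, n = 4) and 173.7 ± 72.8 with ibrutinib (n = 5). *Cxcr3* was the highest in single peptide stimulated cells with DMSO, at 98.1 ± 37.1 (n = 5), where *Cxcr6* stood at 60.4 ± 15.7. With ibrutinib in single peptide stimulated cells the levels of *Cxcr3* (88.2 ± 21.2 TPM, n = 4) and *Cxcr6* (89.8 ± 16.2 TPM) lay within their spread. *Ccr2*, with group means of 7.95 to 33.1 TPM, and *Cxcr4*, with 5.85 to 11.3, followed, and *Cxcr4* was the higher of the pair in single peptide stimulated cells with ibrutinib. *Cxcr5*, *Ccr4*, *Cx3cr1*, *Ccr8* and *Ccr9* had group means under 4 TPM in every group. *Cxcr6* in repeat peptide stimulated cells with DMSO was above 93.2% of all tested genes, and *Cx3cr1* above 11.4%.

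**Figure D1:**
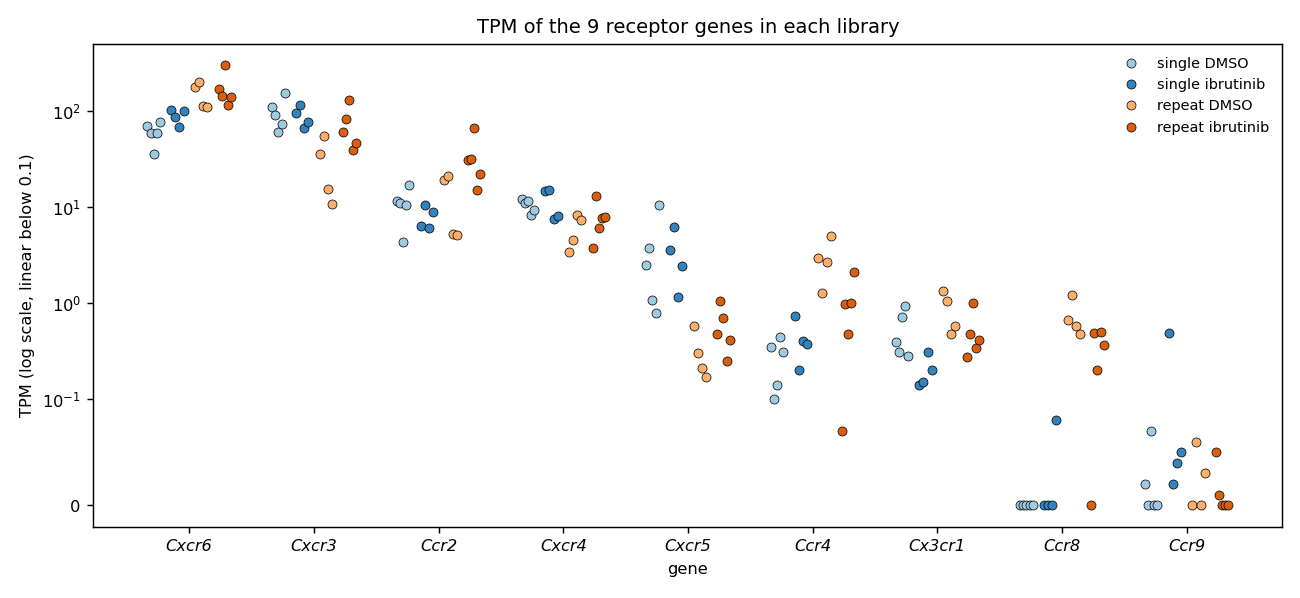
TPM of the 9 receptor genes (y axis, log scale that is linear below 0.1) in each of the 18 libraries, with a point per library coloured by group. *Cxcr6* and *Cxcr3* lie highest, and *Ccr8* is at 0 in all 5 libraries of single peptide stimulated cells with DMSO.

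A total of 12255 genes passed the filter on low counts and were tested with edgeR, and 7 of the 9 receptors were among them; *Ccr8* and *Ccr9* were not. Calls required an adjusted p under 0.05 together with an absolute log2 fold change over 0.2 and, on average, 50 or more normalized counts. *Cx3cr1*, with a mean of 44.3 normalized counts, could not pass the count threshold.

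The first question was how the receptors differ between repeat and single peptide stimulated cells in DMSO. *Cxcr6* and *Ccr4* were higher with repeat peptide, and *Cxcr3*, *Cxcr4* and *Cxcr5* were lower. Thus 2 of 7 were called higher, where 22.8% of all tested genes were, and 3 were called lower, against 24.2% of all genes. With so many genes called in both directions, these counts are not read as particular to the receptors. The share of all tested genes without overlap between groups was not computed, so separations given here and below are not read as particular either. The median log2 fold change of the 7 receptors was 0.105, and that of all tested genes was -0.002. The count was also 5 with DESeq2, with the experiment entered as a replicate block, and in all 9 fits that left out a library. Over all genes, the block called 53.6% of those tested and DESeq2 21% of 27903. The fits that left out a library called 5072 to 5840 genes.

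*Cxcr6*, the receptor for CXCL16, is associated with T cells that stay in tissue. Its normalized counts in repeat peptide stimulated cells with DMSO were 6084, 8068, 4106 and 4315 in experiments A to D. In single peptide stimulated cells they were 2596, 2382, 1634 and 3005 in A to D and 3056 in F, so the groups did not overlap. The log2 fold change was 1.15 ± 0.25 (SE), a 2.23-fold higher level (adjusted p = 0.000861, edgeR). In bulk RNA, fewer cells of a kind and less RNA per cell cannot be told apart. *Klrb1c*, a marker of NK cells, was the second gene most like *Cxcr6* in pattern over the 18 libraries. The summed TPM of *Klrb1c* and *Ncr1* was 2.64 to 25.6 in repeat and 0.59 to 2.73 in single peptide stimulated cells, with *Ncr1* at most 27 counts and at 0 in 7 libraries. The 2 markers went opposite ways between repeat and single peptide in DMSO. *Klrb1c* was higher (log2 fold change 1.79 ± 0.55, adjusted p = 0.0109, edgeR). *Ncr1* was lower (-4.56 ± 1.71, adjusted p = 0.0309, edgeR), with a mean of 4.89 normalized counts, below the threshold for a call. The part of NK cells in the *Cxcr6* result was not tested.

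*Ccr4* encodes the receptor for CCL17 and CCL22. It had 158, 81.9, 155 and 304 normalized counts in repeat peptide stimulated cells with DMSO (A to D). The single peptide stimulated cells had 20.5, 6.49, 10.2 and 35.2 in A to D and 19.2 in F. Every repeat peptide library was above every single peptide library, with a log2 fold change of 3.23 ± 0.65 and a 9.38-fold difference (adjusted p = 0.000413). Within experiments A to D the log2 difference was 2.83 to 3.69. The dendritic cell list (*Flt3*, *Zbtb46*, *Clec9a*, *Siglech*, *Batf3*) moved with *Ccr4*: its summed TPM was 34.0 to 107 with repeat peptide and DMSO, 1.3 to 33.7 with repeat peptide and ibrutinib, and at most 1.21 with single peptide. *Batf3*, which activated T cells also express, had means of 577.6 and 122 normalized counts with repeat peptide and DMSO or ibrutinib, and 1.07 and 5.24 with single peptide. *Zbtb46* had a mean of 71.2 normalized counts with repeat peptide and DMSO, 37.5 with repeat peptide and ibrutinib, and 8.93 and 6.12 with single peptide and DMSO or ibrutinib, and its log2 fold change between repeat and single peptide in DMSO was 2.94 ± 0.57 (adjusted p = 3e-04, with a mean count below the threshold for a call). *Flt3* reached at most 13 counts, and *Clec9a* and *Siglech* never exceeded 1 count and were at 0 in 17 of 18 libraries. The part of dendritic cells in the *Ccr4* result was not tested.

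*Ccr8*, the receptor for CCL1, stayed below the filter but was found mainly with repeat peptide. The 4 repeat peptide libraries with DMSO had 10, 25, 14 and 9 counts, and all 5 single peptide libraries with DMSO were at 0. A floor of 3 counts per library in place of 0 corresponds to a mean of 3.42 normalized counts. The mean of the repeat peptide libraries, 14.1 normalized counts, was 4.12 times that floor. This mean was raised by library B at 24.7, while A, C and D had 11.6, 10.5 and 9.61. The ratio leaves the spread of the repeat peptide libraries out of account. This gene was not tested.

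*Cxcr3*, the receptor for CXCL9, CXCL10 and CXCL11, was lower with repeat peptide. With DMSO its normalized counts were 1086, 1954, 508 and 376 in repeat peptide stimulated cells (A to D). Single peptide stimulated cells had 3672, 3293, 2442 and 3309 in A to D and 5457 in F. The highest repeat peptide library (B) was still below the lowest single peptide library (C), and the log2 fold change was -1.89 ± 0.39, a 3.71-fold lower level (adjusted p = 0.000554). The difference varied among experiments, from -0.75 in B to -3.13 in D.

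*Cxcr5*, the receptor for CXCL13 that guides cells into B cell follicles, showed the widest gap among the receptors that were lower. It had 29.1, 17.8, 11.2 and 9.61 normalized counts in repeat peptide stimulated cells with DMSO (A to D). It had 136, 218, 71.4 and 59.2 in single peptide stimulated cells of A to D and 614 in F. The groups did not overlap, and the log2 fold change was -3.71 ± 0.67, or 13.1-fold lower (adjusted p = 0.000157). Without library F the log2 fold change was -2.85, and with the replicate block, which takes its value from experiments A to D, it was -2.77.

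A marker of B cells and *Foxp3* moved with *Cxcr5*. *Cd79b*, a component of the B cell receptor, was lower with repeat peptide in DMSO (log2 fold change -1.56 ± 0.38, adjusted p = 0.00187, edgeR) and reached 176 counts. *Ms4a1*, *Cd79a* and *Pax5* never exceeded 7 counts, and each was at 0 in at least 13 of 18 libraries. *Cd4* and *Foxp3* together had 0.02 to 1.02 TPM in repeat and 0.77 to 8.49 TPM in single peptide stimulated cells, almost all of it *Foxp3*, which reached 775 counts where *Cd4* reached 2. The part of either cell type in the *Cxcr5* result was not tested.

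*Cxcr4*, the receptor for CXCL12 and a receptor of bone marrow homing, differed less. Its normalized counts were 98.9, 172, 207 and 191 with repeat peptide and DMSO (A to D). They were 349, 341, 357 and 306 with single peptide in A to D and 267 in F, again without overlap. The log2 fold change was -0.95 ± 0.22, a 1.93-fold lower level (adjusted p = 0.00125).

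*Ccr2*, the receptor for CCL2, CCL7 and CCL12, and *Cx3cr1* were not called. *Ccr2* had 1363, 1758, 399.8 and 411 normalized counts with repeat peptide and DMSO (A to D), and 841, 903, 402, 1058 and 1360 with single peptide (A to D and F). The groups overlapped, experiments A and B were higher with repeat peptide and C and D were not, and the log2 fold change was 0.105 ± 0.435 (adjusted p = 0.852). This estimate was negative without repeat peptide library A (-0.09) or B (-0.33) or single peptide library C (-0.08). *Cx3cr1* had 87.2, 93.8, 32.2 and 49.1 normalized counts with repeat peptide, and 26.2, 27.0, 71.4, 102 and 24.3 with single peptide. Its experiments split in the same way, with A and B higher and C and D lower with repeat peptide, and the log2 fold change was 0.38 ± 0.49 (adjusted p = 0.534).

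**Figure D2:**
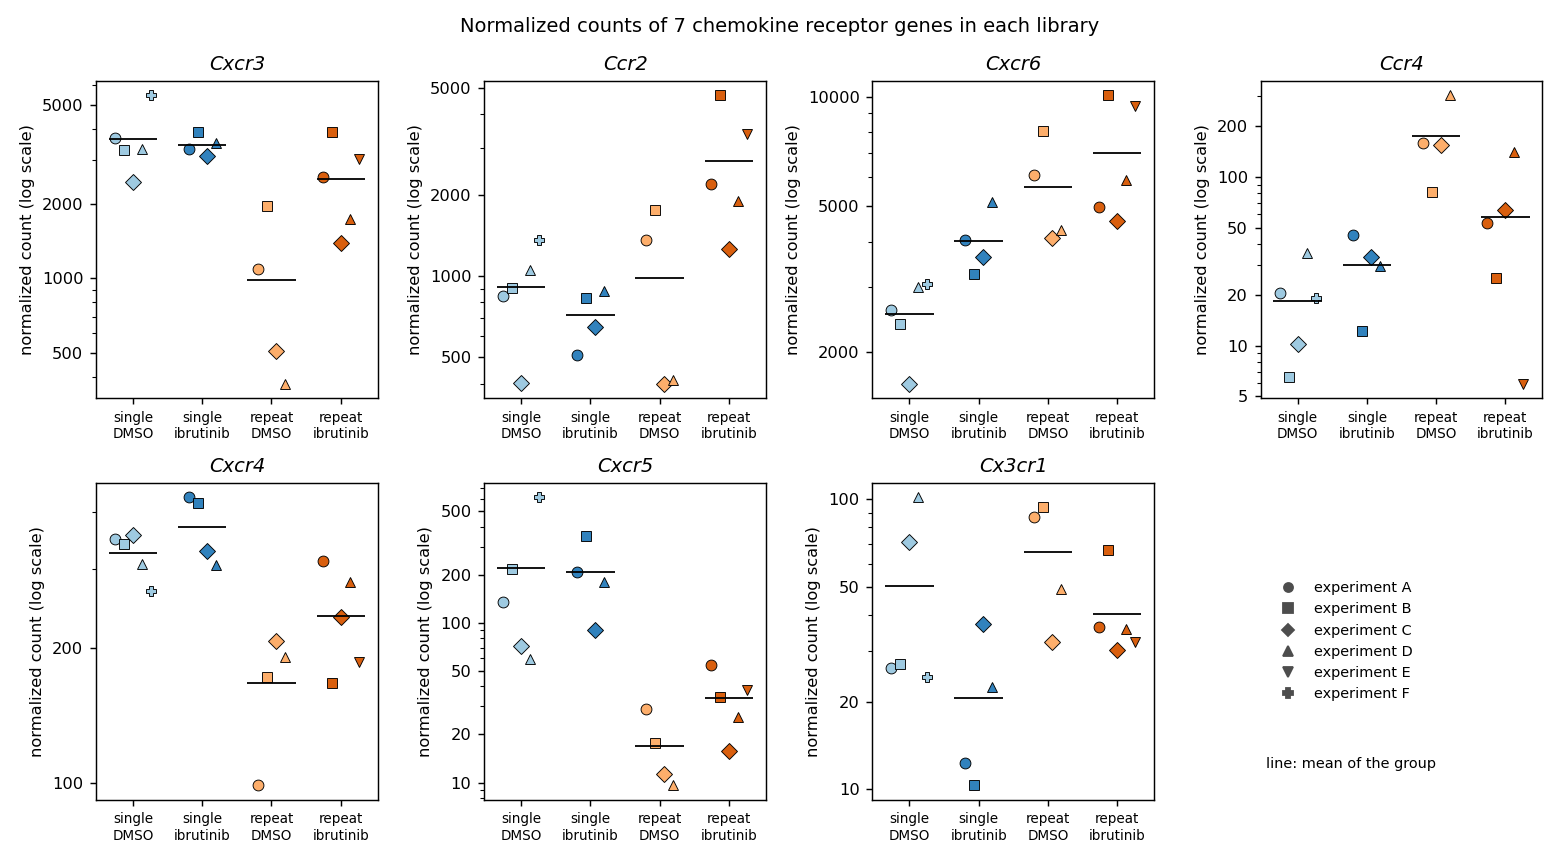
Normalized counts (y axis, log scale) of the 7 tested receptors in each library of the 4 groups, with symbols for the experiments and a line at each group mean. With DMSO the repeat and single peptide libraries do not overlap for *Cxcr3*, *Cxcr6*, *Ccr4*, *Cxcr4* and *Cxcr5*, whereas those of *Ccr2* and *Cx3cr1* do. The share of all tested genes without such overlap was not computed.

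The next question was what ibrutinib changed in repeat peptide stimulated cells. *Cxcr3* was 2.57-fold higher with ibrutinib and was the only one of the 7 receptors called in the main edgeR fit, which has no block. No receptor was called lower. Of all tested genes 4.01% were called higher and 1.92% lower. DESeq2 called 2 receptors, and 3 were called once the experiment entered as a replicate block. Over all tested genes the block also raised the calls, from 726 (5.92%) to 1694 (13.8%), and DESeq2 called 1107 genes. The median log2 fold change of the 7 receptors was 0.49, against 0.004 for all tested genes. This comparison shares its 4 DMSO libraries with the comparison of repeat and single peptide above.

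*Cxcr3* had 2549, 3889, 1392 and 1726 normalized counts in the ibrutinib-treated repeat peptide libraries of experiments A to D and 3032 in E. Against the DMSO values of 1086, 1954, 508 and 376, each experiment from A to D was higher with ibrutinib, by 0.99 to 2.19 on the log2 scale. The groups overlapped, because DMSO library B lay above the ibrutinib libraries C and D. The log2 fold change was 1.36 ± 0.39 (adjusted p = 0.0406). With the replicate block it was 1.37 ± 0.31 (adjusted p = 0.0145).

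The *Cxcr3* call lay close to the threshold. It was lost in 6 of 9 fits that left out a library, at an adjusted p of 0.0724, 0.139 and 0.126 without DMSO library A, C or D and of 0.0717, 0.104 and 0.0834 without ibrutinib library A, B or E. Without DMSO library B the log2 fold change was 1.95 (adjusted p = 0.00356). It was also lost when low count genes were kept (adjusted p = 0.121) and in a fit of only these 9 libraries (adjusted p = 0.117), at log2 fold changes of 1.37 and 1.38.

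*Ccr2* had the larger estimate but also a larger spread. Its normalized counts with ibrutinib were 2192, 4682, 1258 and 1906 in A to D and 3381 in E, against 1363, 1758, 399.8 and 411 with DMSO. It was higher with ibrutinib in each of experiments A to D, by 0.68 to 2.21 on the log2 scale, while the groups overlapped. The log2 fold change of 1.45 ± 0.45 had an adjusted p of 0.0606 without a block. With the replicate block it was 1.38 ± 0.39 and was called (adjusted p = 0.0388), as it was by DESeq2 (adjusted p = 0.0325), without DMSO library B (log2 fold change 1.90, adjusted p = 0.0227) and without ibrutinib library C (1.63, adjusted p = 0.0315).

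Monocytes also express *Ccr2* and *Cx3cr1*. Among markers of monocytes and macrophages, *Csf1r*, *Adgre1* and *Fcgr1* never exceeded 7 counts in any library, while *Cd14* reached 112, *Lyz2* 113 and *Itgam* 58. Between DMSO and ibrutinib in repeat peptide stimulated cells the mean normalized count of *Cd14* was 57.3 and 18.97, that of *Itgam* 10.2 and 23.5 and that of *Lyz2* 0.247 and 14.0, where 1 library had 64.3. *Cd14* and *Itgam* were tested and not called (adjusted p = 0.0676 and 0.299), *Lyz2* was below the filter, and the part of monocytes in the *Ccr2* values was not tested.

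*Ccr4* had lower values with ibrutinib in each of experiments A to D. The ibrutinib libraries had 53.4, 25.0, 63.8 and 141 normalized counts in A to D and 5.95 in E, against 158, 81.9, 155 and 304 with DMSO. The within-experiment difference was narrow, at -1.10 to -1.64 on the log2 scale, but experiments differed in level, so the groups overlapped. Without a block the log2 fold change was -1.57 ± 0.60 (adjusted p = 0.129). With the replicate block it was -1.38 ± 0.30 and was called (adjusted p = 0.00571). Without ibrutinib library D it was -2.23 and was also called (adjusted p = 0.0298). *Ccr8*, below the filter, had 8.49, 3.41, 10.1 and 7.80 normalized counts with ibrutinib in A to D and 0 in E, against 11.6, 24.7, 10.5 and 9.61 with DMSO. It was lower with ibrutinib in each of A to D on this scale, but the values rest on 3 to 25 counts a library and were not tested.

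The other receptors did not pass the test in this comparison. *Cxcr4* had 312, 167, 234, 280 and 186 normalized counts with ibrutinib (A to E), and its log2 fold change was 0.49 ± 0.22 (adjusted p = 0.188). *Cxcr5* had 54.6, 34.1, 15.7, 25.6 and 38.1, above the DMSO library in each of experiments A to D, with a log2 fold change of 0.99 ± 0.65 (adjusted p = 0.400). *Cxcr6* had 4978, 10070, 4568, 5912 and 9409, overlapping the DMSO libraries, with 0.31 ± 0.25 (adjusted p = 0.512). *Cx3cr1* had 36.4, 67.1, 30.2, 35.7 and 32.1 with ibrutinib, lower than DMSO in each of A to D, with -0.70 ± 0.49 (adjusted p = 0.432). *Cxcr5* and *Cx3cr1* thus kept 1 direction within all 4 experiments without a called difference. The share of all tested genes that keep 1 direction in this way was not computed. Shared directions within experiments, here and elsewhere, are therefore not read as particular to the receptors.

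**Figure D3:**
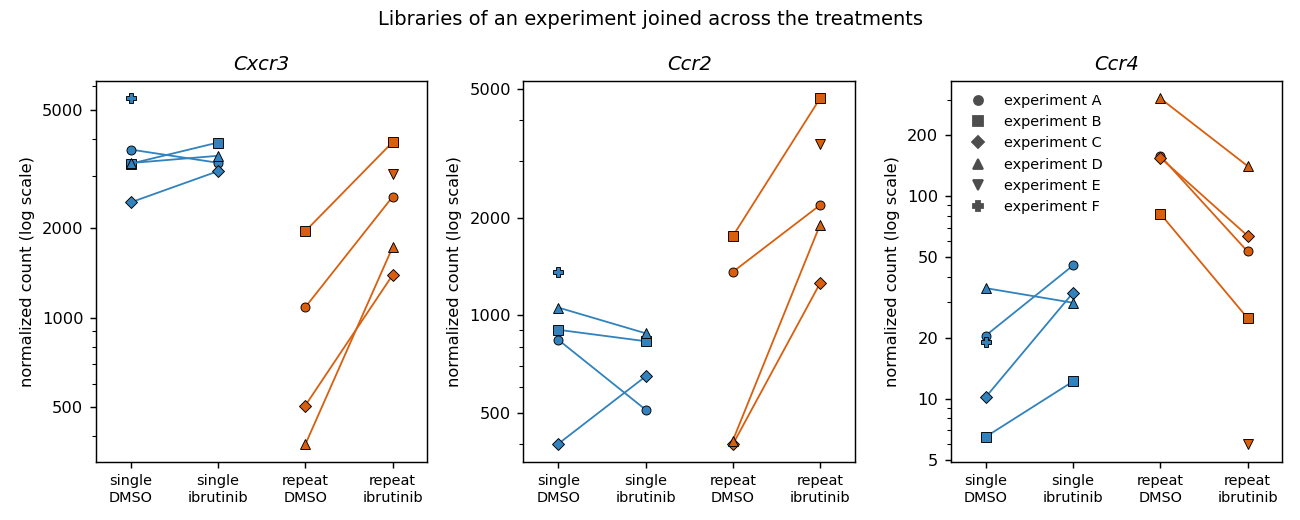
Normalized counts (y axis, log scale) of *Cxcr3*, *Ccr2* and *Ccr4* in each library, with lines joining the DMSO and ibrutinib libraries of an experiment, in blue for single and orange for repeat peptide. With repeat peptide all 4 lines run upward for *Cxcr3* and *Ccr2* and downward for *Ccr4*, and experiment E, which has no DMSO library, stands alone.

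In single peptide stimulated cells no receptor was called with ibrutinib by edgeR, where 0.351% of all tested genes were called higher and 2.69% lower. At an unadjusted p under 0.05 there were 2 of the 7 receptors, against 13.5% of all tested genes, and DESeq2 called 0. The median log2 fold change of the 7 receptors was -0.075, against 0.01 for all tested genes. *Cxcr6* had 4044, 3254, 3623 and 5129 normalized counts with ibrutinib (A to D), each above all 5 DMSO libraries, which ended at 3056. Its log2 fold change was 0.66 ± 0.25 (unadjusted p = 0.0166 and adjusted p = 0.213, edgeR). *Cx3cr1* had 12.3, 10.3, 37.1 and 22.6 with ibrutinib, lower than DMSO in each of experiments A to D, with -1.29 ± 0.52 (unadjusted p = 0.0227 and adjusted p = 0.249, edgeR). These were the 2 receptors with an unadjusted p under 0.05.

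*Cxcr3* in single peptide stimulated cells had 3315, 3878, 3108 and 3500 normalized counts with ibrutinib, inside the range with DMSO, and a log2 fold change of -0.075 ± 0.37 (adjusted p = 0.968). *Ccr2* had 512, 833, 648 and 881, with -0.35 ± 0.44 (adjusted p = 0.824), and *Ccr4* had 45.5, 12.2, 33.4 and 29.8, with 0.70 ± 0.65 (adjusted p = 0.740). Neither of them was separated from its DMSO libraries. *Cxcr4* had 432, 419, 327 and 306, with 0.20 ± 0.21 (adjusted p = 0.784). *Cxcr5* had 208, 349, 90.9 and 181, above the DMSO library of the same experiment in all 4. Its log2 fold change was -0.08 ± 0.56 (adjusted p = 0.979) with all libraries, 0.77 without DMSO library F, which was far above the others, and 0.81 with the replicate block (adjusted p = 0.0664). Without ibrutinib library C it was 0.15, so the sign of the *Cxcr5* estimate rested on library F and on ibrutinib library C.

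The difference between the ibrutinib effects in repeat and single peptide stimulated cells was tested as an interaction. No receptor was called by edgeR, against 1.04% of all tested genes called higher and 0.212% called lower, and DESeq2 called 0. At an unadjusted p under 0.05 there were 3 of the 7 receptors, against 11.4% of all tested genes. They were *Ccr2* (log2 difference 1.80 ± 0.63, unadjusted p = 0.00996 and adjusted p = 0.213, edgeR), *Cxcr3* (1.44 ± 0.53, unadjusted p = 0.0145 and adjusted p = 0.254, edgeR) and *Ccr4* (-2.27 ± 0.89, unadjusted p = 0.0192 and adjusted p = 0.285, edgeR). With the replicate block, under which the calls over all genes rose from 1.26% to 5.54%, *Ccr4* was called, at -2.24 ± 0.46 (adjusted p = 0.00863), and *Ccr2* and *Cxcr3* were not (adjusted p = 0.174 and 0.137). Without repeat peptide DMSO library B *Cxcr3* was called, at 2.04 (adjusted p = 0.0344). The median over the 7 receptors was 0.59 and that over all tested genes 0.02.

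With ibrutinib in both, repeat and single peptide stimulated cells differed in 4 of the 7 receptors. *Ccr2* and *Cxcr6* were higher with repeat peptide, against 18.7% of all tested genes, and *Cxcr4* and *Cxcr5* were lower, against 19.6% of all genes. The median log2 fold change was 0.80 over the receptors and -0.02 over all tested genes. *Ccr2* was 3.73-fold higher (log2 1.90 ± 0.46, adjusted p = 0.00265), and its 5 repeat peptide libraries, from 1258 to 4682 normalized counts, all lay above the 4 single peptide libraries, from 512 to 881. *Cxcr6* was 1.74-fold higher (log2 0.80 ± 0.26, adjusted p = 0.0172), with repeat peptide library C (4568) and A (4978) below single peptide library D (5129). *Cxcr5* was 6.20-fold lower (log2 -2.63 ± 0.59, adjusted p = 0.00159) and *Cxcr4* 1.57-fold lower (log2 -0.65 ± 0.21, adjusted p = 0.0177).

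*Cxcr3*, 3.71-fold lower with repeat peptide in DMSO, was 1.37-fold lower in ibrutinib and not called (log2 -0.45 ± 0.37, adjusted p = 0.336). *Ccr4*, 9.38-fold higher in DMSO, was 1.95-fold higher in ibrutinib (log2 0.96 ± 0.63, adjusted p = 0.231), and was called with the replicate block (1.08 ± 0.32, adjusted p = 0.00924). *Cx3cr1* had 0.96 ± 0.51 (adjusted p = 0.140). Without single peptide library B, *Cxcr4* (adjusted p = 0.0551) and *Cxcr6* (adjusted p = 0.0575) were no longer called, which left 2 receptors, and without library A *Cxcr4* was not (adjusted p = 0.0744).

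**Figure D4:**
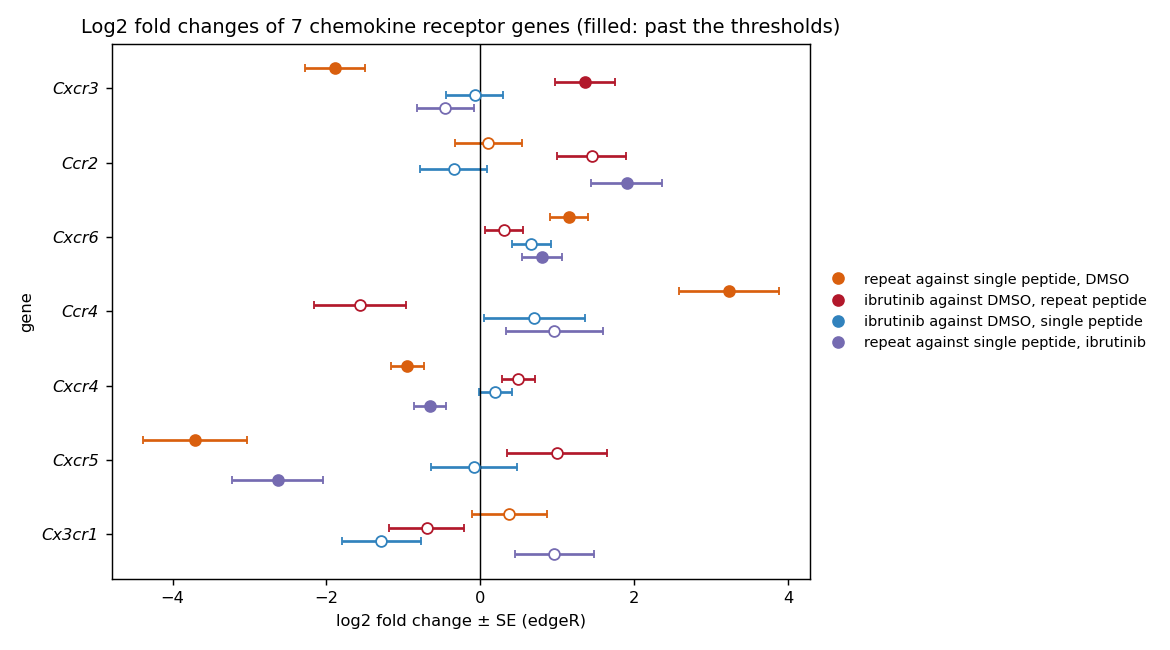
Log2 fold changes (x axis) of the 7 tested receptors, with bars of 1 SE, in the 4 comparisons between pairs of groups; filled points passed the thresholds. *Ccr4* lies at 3.23 between repeat and single peptide in DMSO and at -1.57 for ibrutinib in repeat peptide stimulated cells, comparisons that share the repeat peptide DMSO libraries.

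*Ccr9*, the receptor for CCL25 and a gut homing receptor, was nearly silent. Its counts were at most 6 in 17 of 18 libraries, and the remaining library, single peptide with ibrutinib from experiment A, had 37 counts (0.49 TPM). The group means were 0.01 to 0.15 TPM, and no fold change is given for it.

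Among libraries of the same group some receptors varied together. After subtracting the group means from the log2 CPM (counts scaled to the size of the library), *Cxcr3* and *Ccr2* had a Pearson r of 0.93 over 18 libraries, *Ccr2* and *Cxcr6* 0.87, and *Cxcr3* and *Cxcr6* 0.79. Over the same libraries without that step, r was 0.37, 0.72 and -0.14. Subtracting the experiment means as well left r at 0.90, 0.82 and 0.81. Experiments E and F hold a lone library each, which adds nothing to these last values. *Cxcr4* went the other way, with r of -0.64 against *Ccr2* and -0.48 against *Cxcr3* after group means. *Cx3cr1* had r of 0.23 against *Cxcr3* and 0.30 against *Ccr2* after group means, and 0.79 against both after the experiment means too. These correlations are descriptions: the libraries share groups, experiments and depth, and the points are not independent. How often other pairs of genes reach such values was not computed, so the likeness is not read as particular to the receptors.

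In repeat peptide stimulated cells experiment B had the highest *Cxcr3*, *Ccr2* and *Cxcr6* in DMSO and in ibrutinib. Experiments C and D had the lowest of both *Cxcr3* and *Ccr2* with DMSO and with ibrutinib. For *Cxcr4* the repeat peptide library of experiment B with ibrutinib was the lowest of its group, at 167 normalized counts.

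**Figure D5:**
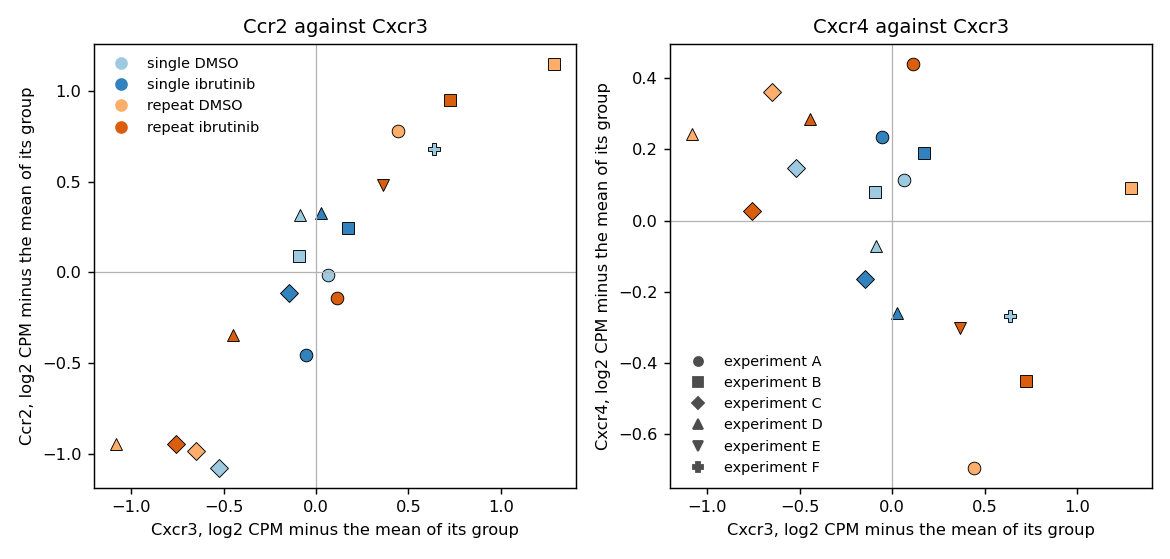
Deviations of *Ccr2* (left) and *Cxcr4* (right) from the mean of the group, in log2 CPM, against those of *Cxcr3* (x axis), with a point per library, colours for groups and symbols for experiments. *Ccr2* follows *Cxcr3* (r = 0.93), and *Cxcr4* tends to run against it (r = -0.48).

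The gene whose pattern was most like that of *Cxcr3* over the 18 libraries was *Cd37*, a tetraspanin of lymphocytes, with r = 0.96, followed by *Baiap3* (0.95). *Cxcr5* was most like *Rasgrp1* (0.97), an activator of Ras downstream of the T cell receptor, and *Tbcel* (0.96). For *Cxcr4* these genes were *Igsf3* (0.93) and *Tulp3* (0.91), and for *Cxcr6* they were *Glrx* (0.90) and *Klrb1c* (0.89). *Ccr4* was most like *Slc12a8* and *Cog7* (both 0.89), *Cx3cr1* like *Hcn2* (0.82) and *Haspin* (0.80), and *Dse* was 1 of the 2 genes most like *Ccr2* (0.86). All are Pearson correlations of log2 CPM across the same 18 libraries, which share groups.

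Of 13 other chemokine receptor genes, 3 passed the filter on low counts. Between repeat and single peptide in DMSO, *Ccrl2*, an atypical receptor that presents chemerin, was higher (log2 4.77 ± 0.58, adjusted p = 2.67e-06) and *Ccr7*, the receptor for lymph node entry, was lower (-1.31 ± 0.20, adjusted p = 3.01e-05). Both were called in the same direction with ibrutinib in both groups, at 3.89 and -1.47. No gene of this list was called for ibrutinib in either stimulation or for the interaction. The lists of these and the following genes were drawn up as the surroundings of the receptors, with earlier results of these data known.

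Most ligands of the receptors were scarcely expressed by the cells themselves. Of 15 ligand genes only 3 were tested. *Cxcl11* was not among the protein-coding or lncRNA genes kept, so its level was not examined. The others that were not tested fell below the filter on low counts. *Ccl25*, the ligand of the silent *Ccr9*, was the only call in the 5 comparisons, lower with repeat peptide in DMSO (log2 -0.63 ± 0.26, adjusted p = 0.0479). *Ccl1*, the ligand of *Ccr8*, had a mean of 12.85 normalized counts and could not pass the count threshold. With ibrutinib its mean was 7.54 TPM with repeat peptide and 0 with single peptide (log2 8.11 ± 1.64, adjusted p = 0.000971, edgeR). *Cxcl16*, the ligand of the abundant *Cxcr6*, did not exceed 30 counts in any library.

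The signalling genes behind the receptors moved in both directions. Of 28 genes for G proteins, receptor kinases, arrestins, regulators of G protein signalling and their effectors, 26 were tested. Between repeat and single peptide in DMSO 7 were called higher and 10 lower, where 22.8% and 24.2% of all tested genes were, with a median log2 fold change of -0.05. The largest differences were those of the regulators *Rgs16* (4.41 ± 0.33), *Rgs2* (3.35 ± 0.43) and *Rgs1* (2.44 ± 0.40), which shorten G protein signals. With ibrutinib in repeat peptide stimulated cells 4 of the 26 were called higher and 0 lower (median 0.08), against 4.01% and 1.92% of all tested genes. They included *Plcb2* (0.85 ± 0.20, adjusted p = 0.0152), a phospholipase driven by G proteins, *Prex1* (0.85 ± 0.17, adjusted p = 0.00593), an exchange factor for Rac, and *Pik3r5* (0.73 ± 0.20, adjusted p = 0.0348), a subunit of PI3Kγ.

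In single peptide stimulated cells ibrutinib gave 0 higher and 2 lower calls among the signalling genes, against 0.351% and 2.69% of all tested genes. They were *Rgs16* (-2.67 ± 0.39, adjusted p = 0.00185) and *Pik3cg* (-0.46 ± 0.12, adjusted p = 0.048). With ibrutinib in both, repeat against single peptide gave 8 higher and 10 lower calls, against 18.7% and 19.6% of all tested genes, led by *Rgs16* (6.28 ± 0.41), *Rgs2* (2.48 ± 0.45) and *Rgs1* (1.59 ± 0.41). No signalling gene was called for the interaction.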

How the data were processed

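RNA-seq libraries of the 4 groups were analysed from 1 deposited table of genes per library. Per the labels and the study's methods, the authors trimmed the reads with Trim Galore and estimated expression with RSEM 1.3.1 and STAR on GRCm38 with the Ensembl annotation; the deposited expected counts are RSEM's estimates, made by the authors, of how many reads each gene received. The deposited TPM values are scaled per length by the authors and were used only for levels. The deposited effective lengths entered 1 alternative as an offset. A later DESeq2 test by the authors was not used.

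Expected counts were rounded to whole numbers. Of 45706 genes, 45143 matched GENCODE M21, and 27903 protein-coding or lncRNA genes, with 98.5% of the counts, were kept. edgeR 4.0.16 in R 4.3.3 kept 12255 genes (filterByExpr), scaled them by TMM, fitted all 4 groups at once (glmQLFit, robust) and compared them with glmQLFTest (two-sided, Benjamini-Hochberg over all tested genes). Normalized counts are on the scale of the mean effective library size, and log2 CPM values have a prior count of 2. DESeq2 1.42.0 served in alternatives. The comparisons were tested on simulated counts drawn without any effect of the experiment. That test therefore does not cover the likeness of libraries within experiments described below.

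The receptors, the gene lists and the motifs were chosen with earlier results of these data known. All 9 receptors are named. Of other lists at most 3 called genes per comparison with the largest fold change are named. Also named are the 2 genes most alike to each receptor, markers of cell types, and the ligands *Ccl1*, *Cxcl11* and *Cxcl16*. Values of a few genes are not reported here. The floor of 3 counts covers counting error only, whereas the SD and SE values include the spread between libraries. The depth had a median of 27420966 counts. Over 32 pairs of libraries within groups, the chi-square of the counts divided by its degrees of freedom was 28.6 to 225, more than sampling noise gives, so none was a second copy. The labels do not say that libraries of a group came from separate mice, so p-values measure the spread between these libraries.

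The experiment comes from the genotype entry of the labels. Deviations from the group means correlated at 0.16 to 0.494 (median 0.325) where 2 libraries shared an experiment (24 pairs). The median was -0.076 in 97 other pairs, so libraries of the same experiment were more alike. The main tests did not use this pairing. The study's methods name no block, so the experiment entered as a replicate block only in an alternative. The other alternatives changed the size factors (DESeq2), the low count filter, the mean count threshold or the length offset, fitted the compared groups alone, used DESeq2's Wald test, or left out each library in turn.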

Additional observations from a re-analysis of the deposited data

Results flagged for a closer look

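*Cx3cr1* in the repeat peptide library with ibrutinib from experiment B stood far from its group, at 67.1 normalized counts where the other 4 libraries had 30.2 to 36.4. On the log2 CPM scale its gap to the nearest library was 0.77 of the range of the group. The 7 tested receptors were examined in the 4 groups, 28 groups of libraries in all, and chance puts about 1 in 20 such groups past this limit. In DMSO the repeat peptide library of experiment B (93.8) was also the highest of its group.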

How the results depend on the processing

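The 5 receptors called between repeat and single peptide in DMSO were called in every alternative run. For ibrutinib in repeat peptide stimulated cells, where *Cxcr3* alone was called, the count was 0 with no filter on low counts and in a fit of only the compared groups, 2 with DESeq2's Wald test, and 3 with the experiment as a replicate block; it ranged from 0 to 2 without single libraries. The count for the interaction was 1 in place of 0 with the replicate block and 0 to 1 without single libraries, and for repeat against single peptide in ibrutinib it was 2 to 4 without single libraries. In paired fits the block changed the calls of *Ccr2* and *Ccr4* given above and no other call. The cause of these changes was not tested.

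Estimates near 0 changed sign. *Ccr2* between repeat and single peptide in DMSO was -0.094 without repeat peptide library A, -0.333 without B and -0.084 without single peptide library C, from -0.333 to 0.368 over all libraries left out. *Cxcr3* with ibrutinib in single peptide stimulated cells was 0.131 with the replicate block and 0.118 without DMSO library F, with a range of -0.189 to 0.118 without single libraries. *Cxcr5* there was 0.81 with the block, 0.773 without DMSO library F and 0.152 without ibrutinib library C, with a range of -0.456 to 0.773. DESeq2 size factors, an effective length offset and no threshold on the mean count changed no call of a receptor. *Cx3cr1* was under the threshold on the mean count and was not called without that threshold either, and *Ccr8* and *Ccr9* had too few counts at this depth to be tested.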
